A study of Mus musculus with 2 samples.

Results

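Intermediate filament proteins assemble into the rope-like part of the cytoskeleton and, as lamins, into the mesh that lines the inside of the nuclear envelope. The transcripts of 7 such genes were followed in single muscle stem cells, also called satellite cells (SCs): the cytoplasmic filament genes Vim (vimentin), Des (desmin), Nes (nestin) and Synm (synemin), and the lamin genes Lmna (lamins A and C), Lmnb1 (lamin B1) and Lmnb2 (lamin B2). They were taken by symbol as a gene family, and all 7 were found among the 32285 features counted in both libraries. The counts came from droplet-based 3′ single-cell RNA sequencing, in which transcripts are counted by a random tag added to each (unique molecular identifier, UMI) and those of 1 droplet share a barcode.

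The quiescent SC (QSC) library was made from SCs sorted from uninjured tibialis anterior (TA) muscle. The activated SC (ASC) library was made from SCs sorted from TA muscle on day 1.5 after an injection of cardiotoxin, which destroys muscle fibres. Both came from mice that were 8 weeks old and of genotype Pax7 CreERT2/+;Rosa26 mTmG/+, in which an inducible Cre made under control of the Pax7 locus switches on a fluorescent membrane reporter in Pax7-expressing cells and their descendants. Each library was a pool of cells from several mice, and each group had 1 library, so that injury, library and pool cannot be told apart. No p-value could be given, and every interval below is a 95% interval for counting error alone.

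Satellite cells lie between a muscle fibre and its basal lamina. Upon injury they enter the cell cycle, and their progeny express Myog (myogenin), leave the cycle and fuse. Desmin is the main filament of muscle, where it links the contractile units to each other and to the cell membrane, and synemin binds to it. Vimentin is the filament of mesenchymal cells and of dividing myoblasts, and nestin, a very large filament protein, is found with it in progenitor cells. Vimentin and nestin filaments are taken apart at mitosis, as are the lamins. B-type lamins keep a lipid anchor in the nuclear membrane, whereas mature lamin A does not, and A-type lamins are a feature of differentiated and mechanically loaded tissues.

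Because Myog and its relatives bind to the sequence CANNTG, called an E-box, the 250 bases in front of the annotated transcription start are shown for 1 gene whose level went with that of Myog, Lmnb2, and for 1 whose level did not, Des. Promoter entries of RefSeq (build GRCm38.p6) matched 6 of the 7 genes, all but Lmnb1. The Des window is chr1:75360042-75360291 on the plus strand and the Lmnb2 window is chr10:80918246-80918495 on the minus strand, both upstream of the annotated exons. For Lmnb2 the more upstream of 2 RefSeq starts was taken. They are written 5′ to 3′ in the direction of the gene, and capitals mark each match to CANNTG. Since this motif reads the same on both strands, 1 search covers both.
Des: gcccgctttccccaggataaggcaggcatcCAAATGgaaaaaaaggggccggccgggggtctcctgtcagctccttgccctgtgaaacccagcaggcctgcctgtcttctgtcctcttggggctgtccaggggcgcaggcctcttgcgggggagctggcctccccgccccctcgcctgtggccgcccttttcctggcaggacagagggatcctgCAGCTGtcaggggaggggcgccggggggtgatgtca
Lmnb2: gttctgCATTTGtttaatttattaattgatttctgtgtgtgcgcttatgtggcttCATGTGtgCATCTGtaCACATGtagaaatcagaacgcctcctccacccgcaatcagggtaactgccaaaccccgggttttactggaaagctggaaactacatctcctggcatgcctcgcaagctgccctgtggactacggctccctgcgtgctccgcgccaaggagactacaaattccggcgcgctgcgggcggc
The Des window holds 2 matches, the one nearer to the start being CAGCTG, and the Lmnb2 window holds 4, none of which is CAGCTG. Among the 32851 RefSeq promoter windows of the same length, 66.2% hold at least 1 CANNTG, 31.8% at least 2 and 3.84% at least 4, and 13.0% hold CAGCTG. A match is a run of letters and not a measured binding site. The 2 genes were picked by their levels, and the windows of the other members were not compared. These counts therefore cannot show whether E-boxes go with the Myog pattern.

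After filtering, 516 QSC barcodes with 1162091 UMIs and 1468 ASC barcodes with 8895815 UMIs were kept, with a median of 2155 and 3502 UMIs per barcode. Levels are given as CPM, the UMIs of a gene per 1e6 UMIs summed over the barcodes of a group. Many barcodes carried transcripts of mature fibres, so they were divided by the share of UMIs from 10 fibre genes such as Acta1 and Ckm. Contractile-low muscle barcodes had under 5% (370 QSC, 406 ASC), contractile-high barcodes had at least 5% (104 QSC, 947 ASC), and 42 QSC and 115 ASC barcodes lay in clusters named as non-muscle. Of the kept barcodes, 2 of the QSC and 44 of the ASC library lay near this limit, between 4% and 6%, and 2 barcode sequences occurred in both libraries. The label of muscle stem cells was checked against 10 markers of quiescent SCs: all 10 had UMIs in the contractile-low barcodes of both libraries, at a summed 5152 CPM in QSCs and 875 CPM in ASCs, against 83.9 and 49.6 CPM in contractile-high barcodes. Pax7 itself stood at 9.32 CPM in contractile-high QSC barcodes and at 2.28 CPM in those of the ASC library. The contractile-high barcodes, which make up most of the ASC library, thus carried few transcripts of quiescent SC markers although the library is labelled as sorted SCs. A list of 10 activated SC markers summed to 2450 (QSC) and 5388 CPM (ASC) in contractile-low barcodes, against 378 and 867 CPM in contractile-high ones. Of these, Myod1 and Myog were at 170 and 149 CPM in contractile-high ASC barcodes, against 418 and 950 CPM in contractile-low ASC barcodes.

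Over all kept barcodes, Vim, Nes, Lmnb1 and Lmnb2 were higher in the ASC library by at least 2-fold, and Des, Synm and Lmna differed by less. These are 4 of 7 genes, against 16.0% of the 11189 genes with at least 20 UMIs over both libraries that were at least 2-fold higher, and 0 of 7 were at least 2-fold lower, against 23.0% of those genes. For Vim the QSC level was 350 CPM (407 UMIs) and the ASC level 2282 CPM (20301 UMIs), which is a log2 ratio of 2.70 with an interval of 2.56 to 2.85. Des went from 1193 CPM (1386 UMIs) to 2336 CPM (20778 UMIs), a log2 ratio of 0.97 (0.89 to 1.05). The contrast between Vim and Des depended on the deepest barcodes. Without the 10% deepest the log2 ratio was 1.66 for Vim and 1.42 for Des, and with the mean over barcodes of CPM 1.59 and 1.47. Des was then past 2-fold as well. Lmna was at 664 CPM (772 UMIs) and 697 CPM (6197 UMIs), and its interval, -0.04 to 0.18, included 0. With a mitochondrial limit of 1%, the one the study's methods give, the log2 ratio of Lmna was 2.65, but that limit keeps 86 QSC barcodes of which 85 are contractile-high, and 948 ASC barcodes of which 875 are. The other 4 genes were sparse in the QSC library, with 9 UMIs of Lmnb1, 11 of Lmnb2, 30 of Synm and 1 of Nes, so the size of their ratios is known less well. The median log2 ratio over the 5730 genes with at least 20 UMIs in each library was -0.24, and relative to it the log2 ratio was 2.94 for Vim, 1.21 for Des and 0.31 for Lmna.

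The kinds of barcodes differed in which of these genes they carried, and for the genes that could be compared the direction was the same in both libraries. Contractile-low muscle barcodes held 88.9% of the Vim UMIs of the ASC library, 89.7% of its Nes UMIs, 84.1% of its Lmna UMIs, 82.8% of its Lmnb1 UMIs and 97.4% of its Lmnb2 UMIs, although they were 27.7% of its barcodes and held 58.6% of all its UMIs. Contractile-high barcodes held 67.1% of the Des UMIs and 86.6% of the Synm UMIs, with 34.5% of all UMIs. Set against contractile-low barcodes of the same library, the contractile-high ASC barcodes were at least 2-fold higher for 2 of 7 genes, Des and Synm (15.7% of 10195 genes), and at least 2-fold lower for the other 5 (44.7% of genes). In the QSC library 4 of the genes had enough UMIs: Des and Synm were at least 2-fold higher (18.8% of 5298 genes) and Vim and Lmna lower (47.8%). The lower members thus moved with a large part of the transcriptome, and the higher ones with a smaller part of it.

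**Figure D1:**
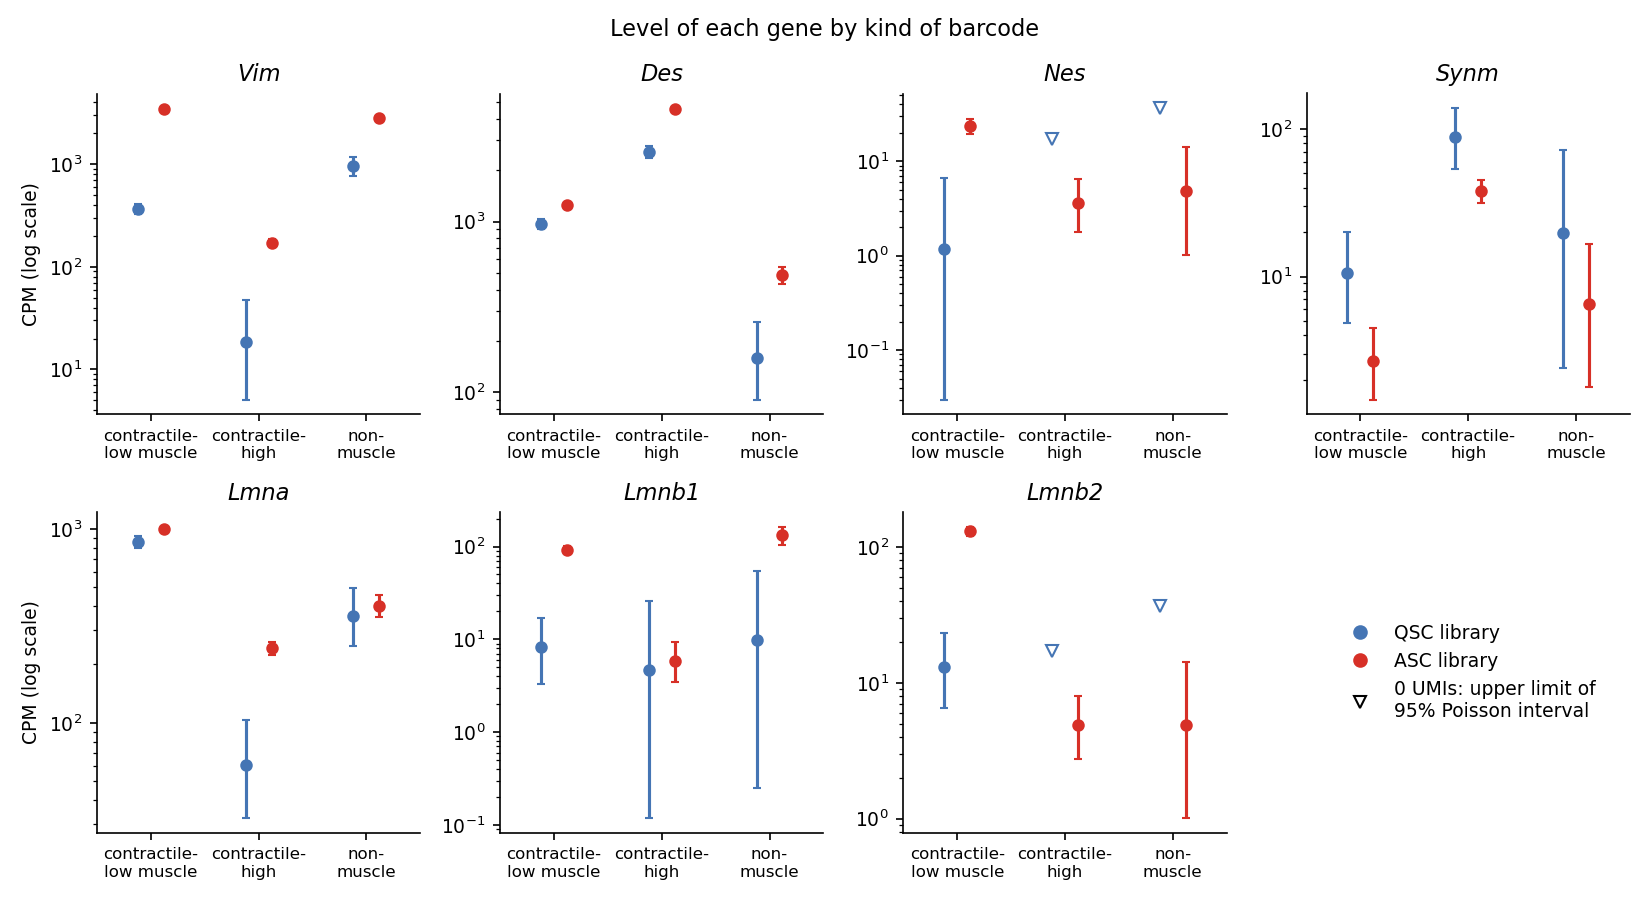
Level of each of the 7 genes in CPM (vertical log axes, a different range in each panel) in contractile-low muscle, contractile-high and non-muscle barcodes of the QSC library (blue) and the ASC library (red). Points are summed levels with 95% Poisson intervals and open triangles mark the upper limit where there were 0 UMIs. Des and Synm were highest in contractile-high barcodes of both libraries, and Vim was lowest there, at 18.6 CPM (QSC) and 171 CPM (ASC).

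Within contractile-low muscle barcodes, the kind with the higher level of SC markers, the same 4 genes were at least 2-fold higher in the ASC library, 4 of 7 against 18.6% of 9931 genes, and Synm was at least 2-fold lower, 1 of 7 against 22.5%. Vim, the mesenchymal filament, was at 363 CPM in QSCs (307 UMIs in 370 barcodes) and 3459 CPM in ASCs (18044 UMIs in 406 barcodes), 9.54-fold higher, a log2 ratio of 3.25 (3.09 to 3.42). Per barcode, the median Vim level was 0 in QSCs with a 90th percentile of 946 CPM, and in ASCs the median was 1754 CPM, with a 10th percentile of 205 CPM and a 90th of 5532 CPM. The median depth was 2221.5 UMIs in these QSC barcodes and 8483 in these ASC barcodes, so low levels are more often read as 0 in QSCs. The highest QSC barcode, at 2367 CPM, lay above the ASC median, so that single barcodes of the libraries overlapped. Macrophage and monocyte markers, a possible outside source of Vim, summed to 79.1 CPM over 9 of 12 genes in these QSC barcodes and to 122 CPM over 12 of 12 in these ASC barcodes, against 18281 CPM in ASC non-muscle barcodes, where Vim itself was 2829 CPM. Fibroblast markers were at 4174 and 1018 CPM (10 of 10 and 8 of 10 genes with UMIs, Pdgfra and Mfap5 at 0), while red cell markers were at 131 and 1704 CPM (4 of 5, Alas2 at 0, and 5 of 5), with a median of 0 per barcode and 814788 CPM in 1 ASC barcode. Markers of mural cells were at 529 and 1291 CPM (7 of 8, Cspg4 at 0, and 8 of 8). What part these markers had in the levels was not tested.

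Desmin transcripts, in contrast, differed little. Des was at 969 CPM in contractile-low QSC barcodes (820 UMIs) and 1253 CPM in contractile-low ASC barcodes (6535 UMIs), 1.29-fold higher, a log2 ratio of 0.37 (0.27 to 0.48). In these barcodes the 10 fibre genes took 1.84% and 2.08% of UMIs. Des UMIs numbered 5.27 per 100 UMIs of the fibre genes in contractile-low QSC barcodes and 6.03 in contractile-low ASC barcodes, against 1.25 and 2.71 in contractile-high barcodes and 0.732 and 1.60 in non-muscle barcodes. The contractile-low barcodes therefore held more Des for each fibre transcript than any other kind. Contractile-low and contractile-high barcodes were divided by these same fibre genes, so that rule itself lowers the ratio in contractile-high barcodes. Des was also found in macrophage-like barcodes, which should lack desmin, at 114 CPM (5 UMIs, 37.2 to 267) in the QSC library and 438 CPM (244 UMIs, 384 to 496) in the ASC library. What part such free RNA had in the 1.29-fold difference was not tested. An antisense gene, Gm15179, overlaps Des and had 14 and 96 UMIs in the libraries, so a few reads there are uncertain.

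Taken as a proportion that does not depend on library scaling, Vim made up 27.2% (24.7 to 29.9) of the Vim and Des UMIs in contractile-low QSC barcodes and 73.4% (72.9 to 74.0) in contractile-low ASC barcodes. In contractile-high barcodes it made up 0.722% (0.197 to 1.84) and 3.61% (3.32 to 3.93), and in non-muscle barcodes 85.7% and 85.4%. At least 5 UMIs of both genes together were held by 78 of the 370 contractile-low QSC barcodes and 379 of the 406 contractile-low ASC barcodes. Among these the median proportion was 25% in QSCs and 59.5% in ASCs, whose 10th and 90th percentiles were 14.7% and 86.2%. Single ASC barcodes thus ranged from mostly Des to mostly Vim, and the part of counting error in this range was not tested. The proportion also moved with depth. In contractile-low barcodes with 2500 to 5000 UMIs, QSCs held 145 Vim and 370 Des UMIs, and ASCs held 333 and 540. In that window Des UMIs outnumbered Vim UMIs in both libraries.

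**Figure D2:**
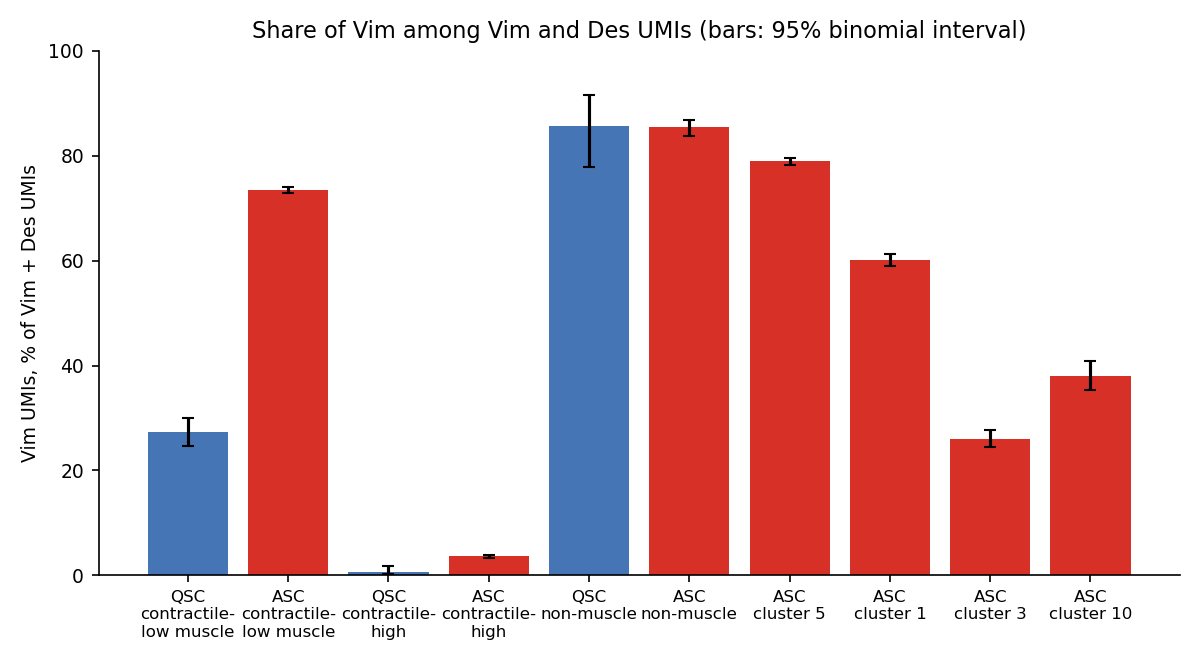
Vim UMIs as a percentage of Vim and Des UMIs (vertical axis, 0 to 100%) in groups of QSC barcodes (blue bars) and ASC barcodes (red bars), with 95% binomial intervals. The proportion was 27.2% and 73.4% in contractile-low muscle barcodes, under 5% in contractile-high barcodes, and it ran from 79.0% in ASC cluster 5 to 38.1% in ASC cluster 10. It moved with depth: contractile-low ASC barcodes with 2500 to 5000 UMIs held 333 Vim and 540 Des UMIs.

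Nestin and synemin, the scarcer filament genes, went in opposite directions. Nes had 1 UMI in contractile-low QSC barcodes (1.18 CPM) and 122 in contractile-low ASC barcodes (23.4 CPM), a log2 ratio of 4.31 whose interval, 1.80 to 9.62, is wide because of the single QSC UMI. Synm had 9 UMIs (10.6 CPM) and 14 UMIs (2.68 CPM), a log2 ratio of -1.99 (-3.30 to -0.60). Synm shares its locus with Ttc23, on the other strand, which had 13 and 54 UMIs. In contractile-high barcodes Synm was 88.6 CPM (19 UMIs, QSC) and 37.8 CPM (116 UMIs, ASC), a log2 ratio of -1.23 (-1.94 to -0.44), so that the higher level in the QSC library was seen in both kinds. Barcodes of the cluster named macrophage-like had Synm at 45.8 CPM (2 UMIs, 5.54 to 165, QSC) and 7.17 CPM (4 UMIs, 1.95 to 18.4, ASC). The contractile-low levels did not exceed these, and the part of free RNA in droplets was not tested.

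The 3 lamin genes did not move together. Lmna was at 854 CPM (723 UMIs) in contractile-low QSC barcodes and 999 CPM (5210 UMIs) in contractile-low ASC barcodes, 1.17-fold higher, a log2 ratio of 0.23 (0.11 to 0.34). Lmnb1 was at 8.27 CPM (7 UMIs) and 91.6 CPM (478 UMIs), a log2 ratio of 3.47 (2.42 to 4.79), and Lmnb2 at 13.0 CPM (11 UMIs) and 131 CPM (684 UMIs), a log2 ratio of 3.34 (2.49 to 4.34). The counts cover the 3′ ends of genes and cannot separate the lamin A and lamin C transcripts of Lmna.

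**Figure D3:**
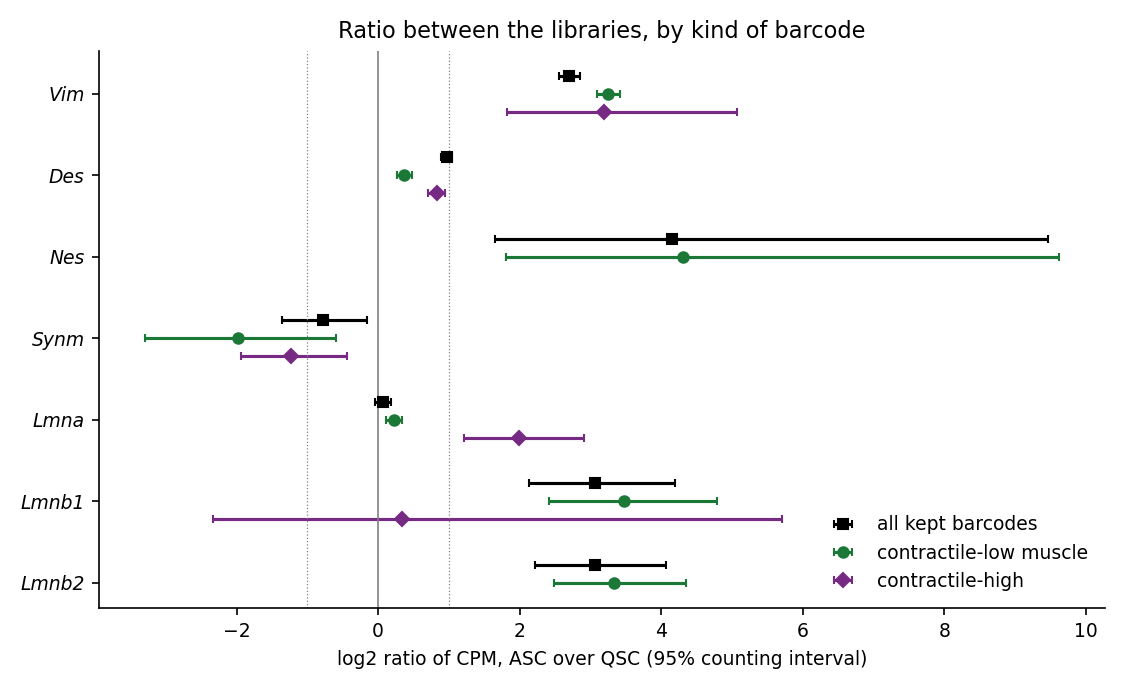
The log2 ratio of CPM, ASC over QSC (horizontal axis), for each gene over all kept barcodes (black squares), contractile-low muscle barcodes (green circles) and contractile-high barcodes (violet diamonds), with 95% counting intervals. The solid line marks no difference and dotted lines 2-fold, and Nes and Lmnb2 have no violet point because the contractile-high QSC barcodes held 0 UMIs of them. Vim, Nes, Lmnb1 and Lmnb2 lay right of the 2-fold line in contractile-low barcodes, and Des and Lmna lay close to 0.

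In contractile-high barcodes 4 of the genes had enough UMIs to compare. Vim and Lmna were at least 2-fold higher in the ASC library, 2 of 4 against 18.7% of 6460 genes, and Synm was at least 2-fold lower, 1 of 4 against 9.06%. Lmna was 60.6 CPM (13 UMIs) and 242 CPM (741 UMIs), a log2 ratio of 2.00 (1.21 to 2.91). Des was 2564 CPM (550 UMIs) and 4548 CPM (13946 UMIs), a log2 ratio of 0.83 (0.70 to 0.95), and Vim was 18.6 CPM (4 UMIs) and 171 CPM (523 UMIs), a log2 ratio of 3.19 (1.83 to 5.07). Lmnb1 had 1 and 18 UMIs, Lmnb2 had 0 and 15, and Nes had 0 and 11, too few for a difference to be detectable at this depth. Of the activated SC markers, all 10 had UMIs in the contractile-high ASC barcodes (867 CPM) and 6 of 10 in the contractile-high QSC barcodes (378 CPM, with Myog, Mymk, Mymx and Ncam1 at 0), and their part in the higher Vim and Lmna was not tested.

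Depth per barcode differed between the libraries, with a median of 2221.5 UMIs in contractile-low QSC barcodes and 8483 in contractile-low ASC barcodes, and it moved with the levels. Within the contractile-low ASC barcodes, Vim was 918 CPM in the 96 barcodes with 2500 to 5000 UMIs, 1856 CPM in the 105 with 5000 to 10000, 2724 CPM in the 87 with 10000 to 20000 and 4509 CPM in the 96 above that. Lmnb1 took the same course, at 19.3, 43.3, 90.3 and 114 CPM, while Des (1488, 1598, 1356 and 1092 CPM) and Lmna (871, 1013, 1122 and 963 CPM) stayed within a narrower range. The share of barcodes that passed the limit used below for cycling was 4.17%, 9.52%, 29.9% and 74.0% in these 4 bins, so depth and cycling cannot be told apart here. Restricted to barcodes with 1200 to 5000 UMIs in both libraries (365 QSC, 113 ASC), a restriction made, like these bins, after the values were seen, the log2 ratio was 1.51 for Vim (352 and 1004 CPM), 1.67 for Lmnb1 (6 and 9 UMIs) and 1.77 for Lmnb2 (10 and 16 UMIs). For Des it was 0.59, and Lmna stood at 859 and 860 CPM. Nes had 1 and 3 UMIs, a log2 ratio of 2.67 (-0.97 to 8.39). Synm had 9 and 2 UMIs, a log2 ratio of -1.08 (-4.33 to 1.19), so for both the interval included 0. Depth still differed within this window, with a median of 2224 and 3577 UMIs. In the narrower window of 2500 to 5000 UMIs (119 QSC and 96 ASC barcodes, medians of 2799 and 3836.5 UMIs), also chosen after the values were seen, Vim was 409 and 918 CPM, a log2 ratio of 1.17 (0.88 to 1.46). There Lmnb2 had 6 and 14 UMIs, a log2 ratio of 1.19 (-0.28 to 2.86), and Lmnb1 2 and 7 UMIs, 1.77 (-0.62 to 5.08), so that for both lamins the interval included 0. Nes had 0 and 3 UMIs in this narrower window and Synm 4 and 2, with intervals that also included 0. The higher Vim level was thus still seen there at a smaller size, and a difference in Lmnb1, Lmnb2, Nes or Synm was not detectable at this depth.

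The share of barcodes with a UMI was compared once each barcode was thinned to 1200 UMIs, which left out 4 QSC and 5 ASC contractile-low barcodes. Vim was detected in 32.8% (28.0 to 37.9) of contractile-low QSC barcodes and 76.3% (71.8 to 80.4) of contractile-low ASC barcodes, and without thinning in 48.1% and 93.1%. Des was detected in 62.6% and 78.1%, and Lmna in 58.7% and 65.8% with overlapping intervals. Lmnb1 was detected in 0.820% and 6.48%, Lmnb2 in 1.09% and 9.73%, and Synm in 1.91% and 0.249%. Nes was detected in 0 of 366 QSC barcodes, which by a limit of 3 counts allows a share of up to 0.820%, and in 1.75% of ASC barcodes. For 4 genes, Vim, Des, Lmnb1 and Lmnb2, the ASC interval lay above the QSC interval. Free RNA in droplets sets a background to such shares: in the macrophage-like cluster of the ASC library (87 barcodes at this depth, a median of 6229 UMIs before thinning), which should lack desmin, 48.3% had a Des UMI, 1.15% an Lmnb2 UMI, and 0 of 87 a Nes or a Synm UMI. The Des share of 78.1% in ASCs is therefore to be read against 48.3%. Without thinning, 4.49% of the macrophage-like ASC barcodes had a Synm UMI, against 3.45% of contractile-low ASC barcodes. In the QSC library the macrophage-like cluster had a Des UMI in 5 of 25 barcodes without thinning (20%, 6.83 to 40.7, a median of 1568 UMIs), against 81.6% of contractile-low QSC barcodes without thinning. The shares of 5.75% for Lmnb1 and 90.8% for Vim in the same cluster give no background, since leukocytes are known to express both genes.

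How the genes varied among ASCs was examined by cluster. The clusters were built without the 7 genes and without other intermediate filament genes. ASC barcodes of contractile-low kind lay mostly in cluster 5, led by Rrm2, Hells and Cdc20 of DNA replication and mitosis, in cluster 1, led by Bgn and Igfbp7 and with interferon-induced genes such as Ifit1 and Cxcl10, and in cluster 10, led by Cdkn1c, Mymk and Myog and called activated satellite-like by its markers. The marker list behind this name includes Myog and Mymk. Cluster 10 had Myog at 6583 CPM and Pax7 at 0 CPM, against 454 and 64.6 CPM in cluster 1 and 81.7 and 10.5 CPM in cluster 5. Vim was 4416 CPM in cluster 5, 2537 CPM in cluster 1 and 744 CPM in cluster 10, with intervals that did not touch. Of the 149 ASC barcodes of cluster 5, 45 were contractile-high. In cluster 5, 10.1% of the ASC barcodes held 59.9% of the Vim UMIs, 57.4% of the Nes UMIs and 49.6% of the Lmnb1 UMIs of the library, with 30.9% of all UMIs. Des was 1685 CPM in cluster 1 and 1211 CPM (1124 to 1303) in cluster 10. For cluster 5 the Des level was 1176 CPM (1136 to 1218), but there the 104 barcodes that were not contractile-high had 971 CPM (933 to 1010) and the 45 contractile-high ones 3902 CPM. Vim lay almost wholly in those 104 barcodes, with 12128 of the 12156 UMIs of cluster 5.

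Lmnb2 set cluster 10 apart. It stood at 519 CPM (462 to 580) there, at 97.5 CPM in cluster 1 and at 67.9 CPM in cluster 5, and the 45 barcodes of cluster 10, 3.07% of the ASC barcodes with 6.68% of the UMIs, held 43.9% (40.2 to 47.6) of the Lmnb2 UMIs of the library. Lmnb2 was detected in 95.6% of these barcodes, and in 33.3% after thinning. Lmnb1 did not share this pattern: its 96.0 CPM (72.7 to 124) in cluster 10 did not differ beyond counting error from the 104 CPM (92.2 to 117) of cluster 5, and both were above the 59.2 CPM of cluster 1. Lmna was 1066 CPM in cluster 10, 1135 CPM in cluster 1 with an overlapping interval, and 834 CPM in cluster 5.

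Among the contractile-high ASC clusters the order of the genes was another. Des was 6252 CPM in cluster 8, led by the stress-response gene Ankrd1 with Csrp3 and Xirp1, 5711 CPM in cluster 4, 4059 CPM in the fibre-like cluster 0 and 3485 CPM in cluster 6. Lmna ran from 151 CPM in cluster 0 to 340 CPM in cluster 8 over clusters 0, 4, 6 and 8, and Vim from 79.2 CPM in cluster 6 to 125 CPM in cluster 4. Cluster 3 mixed both kinds, with 212 contractile-high barcodes and 13 others, and these 13 held 507 of its 732 Vim UMIs and 14 of its 17 Lmnb1 UMIs. Its contractile-high barcodes had Vim at 475 CPM (415 to 541) and Lmna at 382 CPM (329 to 442), with 3 UMIs of Lmnb1 and 5 of Lmnb2. In the QSC library the quiescent satellite-like cluster 2 (239 barcodes) held Vim at 360 CPM, Des at 1001 CPM and Lmna at 940 CPM, with 2 UMIs of Lmnb1, 5 of Lmnb2 and 0 of Nes.

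Among non-muscle barcodes, Lmnb1 was high only in the neutrophil-like cluster of the ASC library, and the 42 QSC ones held 1 UMI of it. Lmnb2 was hardly found, with 3 UMIs in the 115 ASC barcodes and 0 in the QSC ones. The neutrophil-like cluster of the ASC library, 25 barcodes led by S100a8 and S100a9, held Lmnb1 at 886 CPM (42 UMIs, 639 to 1198), the highest level of this gene in any group, with 1 UMI of Lmnb2. The macrophage-like cluster held Lmnb1 at 69.9 CPM and Lmnb2 at 3.59 CPM (2 UMIs), with Vim at 3049 CPM. The fibroblast-like cluster of the QSC library, 17 barcodes, held Vim at 1204 CPM and 0 UMIs of Lmnb1, Lmnb2 and Nes.

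**Figure D4:**
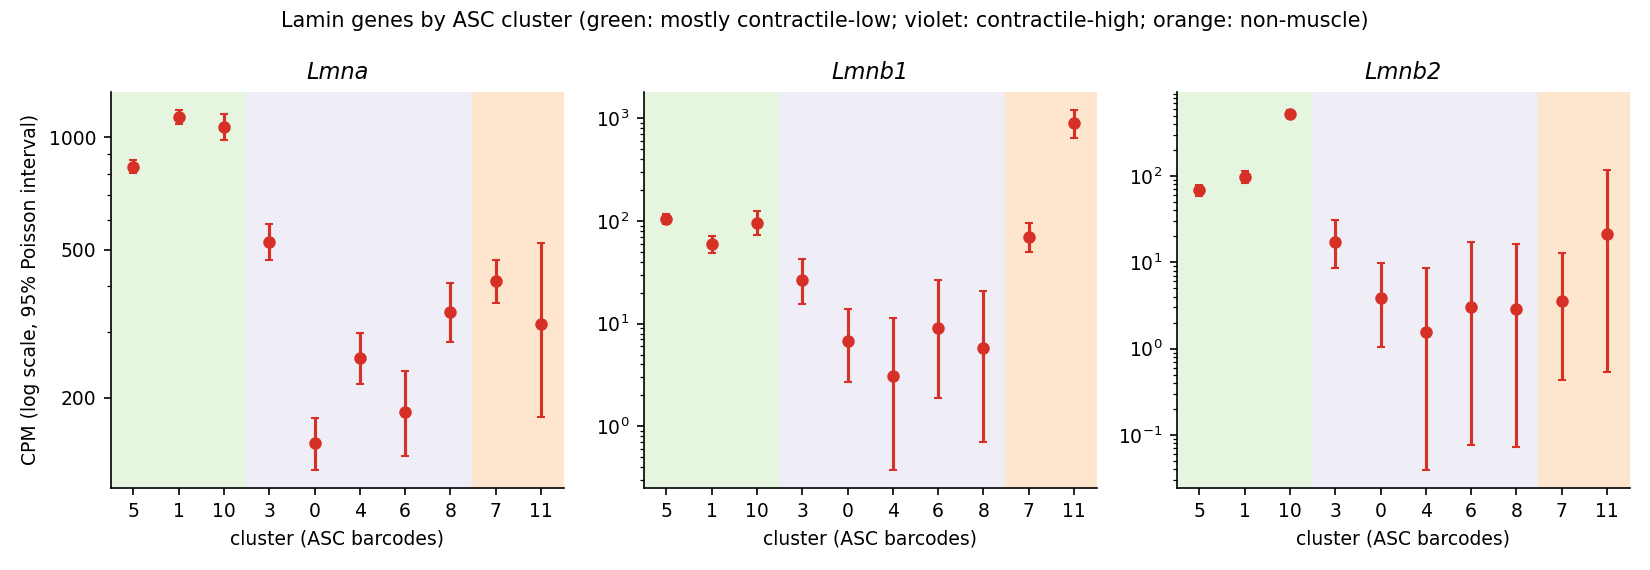
Lmna, Lmnb1 and Lmnb2 in CPM (vertical log axes, a different range in each panel) in 10 clusters of ASC barcodes (horizontal axis), with 95% Poisson intervals. Shading separates mostly contractile-low muscle (green), contractile-high (violet) and non-muscle clusters (orange). Lmnb2 was highest in cluster 10 at 519 CPM, Lmnb1 in the neutrophil-like cluster 11 at 886 CPM, and Lmna in clusters 1 and 10.

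Since lamins and vimentin filaments are taken apart at mitosis, contractile-low ASC barcodes were divided by the share of UMIs from 41 cell cycle genes, none of which is among the 7. Those with at least 0.3% are called cycling here (119 barcodes, a median of 23580 UMIs), against 287 others (a median of 6202 UMIs). Cycling barcodes were at least 2-fold higher for Lmnb1 and Nes, 2 of the 6 genes with at least 20 UMIs (10.3% of 9319 genes), and at least 2-fold lower for 0 of 6 (11.3%). Lmnb1 was 132 CPM (361 UMIs) in cycling and 47.3 CPM (117 UMIs) in other barcodes, a log2 ratio of 1.48 (1.17 to 1.79). Nes was 31.4 CPM (86 UMIs) and 14.5 CPM (36 UMIs), a log2 ratio of 1.11 (0.53 to 1.71), and Vim was 4472 and 2336 CPM, a log2 ratio of 0.94 (0.89 to 0.98). The other genes went slightly the other way. Lmnb2 was 111 CPM in cycling and 153 CPM in other barcodes, a log2 ratio of -0.46 (-0.68 to -0.24), Des was 1113 and 1408 CPM (-0.34), and Lmna was 959 and 1043 CPM (-0.12). For Lmnb2 the other barcodes were a mixture, with 327 of their 379 UMIs in the 75 Myog-high barcodes defined below. The 212 Myog-low ones had Lmnb2 at 32.7 CPM (24.4 to 42.9), under the 111 CPM (99.1 to 124) of cycling barcodes. With a limit of 0.5% of UMIs, which left 44 cycling barcodes, 1 gene was at least 2-fold higher and the log2 ratio of Vim was 0.28, and with 0.2% there were 3 such genes and Vim was at 1.20.

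Among the 287 barcodes that were not cycling, the share of Myog, the factor of early differentiation, was followed next. Myog-high barcodes, in which Myog made up 0.05% of UMIs or more (75 barcodes, a median of 11225 UMIs), were compared with 212 Myog-low barcodes (a median of 5211 UMIs). Lmnb2 and Lmnb1 were at least 2-fold higher in Myog-high barcodes, 2 of 6 genes against 7.23% of 7370 genes, and Vim and Nes at least 2-fold lower, 2 of 6 against 9.25%. Lmnb2 was 370 CPM (327 UMIs) in Myog-high and 32.7 CPM (52 UMIs) in Myog-low barcodes, 11.3-fold higher, a log2 ratio of 3.50 (3.07 to 3.95). Lmnb1 was 85.9 CPM (76 UMIs) and 25.8 CPM (41 UMIs), a log2 ratio of 1.73 (1.17 to 2.32). Vim was 1313 and 2906 CPM, a log2 ratio of -1.15 (-1.24 to -1.05), and Nes had 7 and 29 UMIs, a log2 ratio of -1.21 with an interval (-2.64 to 0.02) that included 0. Des was 1388 and 1419 CPM, a log2 ratio of -0.03 (-0.13 to 0.07), and Lmna 1163 and 976 CPM, a log2 ratio of 0.25 (0.14 to 0.37). When the limit for cycling was 0.5%, 1 gene was at least 2-fold higher and 1 lower, and Lmnb1 differed by a log2 ratio of only 0.25, whereas the log2 ratio of Lmnb2 ran from 2.68 to 3.99 under 4 other limits of Myog or cell cycle share.

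In 4 steps of Myog share, Lmnb2 was 24.5 CPM in the 153 barcodes with no Myog UMI, 45.8 CPM in the 59 with under 0.05%, 171 CPM in the 23 with 0.05% to 0.2% and 453 CPM in the 52 with at least 0.2%. Lmnb1 was 17.4, 39.3, 60.8 and 96.5 CPM over these steps, with intervals that overlapped between neighbouring steps and lay apart between the first and the last. Vim was 2757, 3143, 2498 and 812 CPM, lowest in the last step. Depth moved with these steps as well, from a median of 4982 UMIs to 11449, and its part was not tested.

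**Figure D5:**
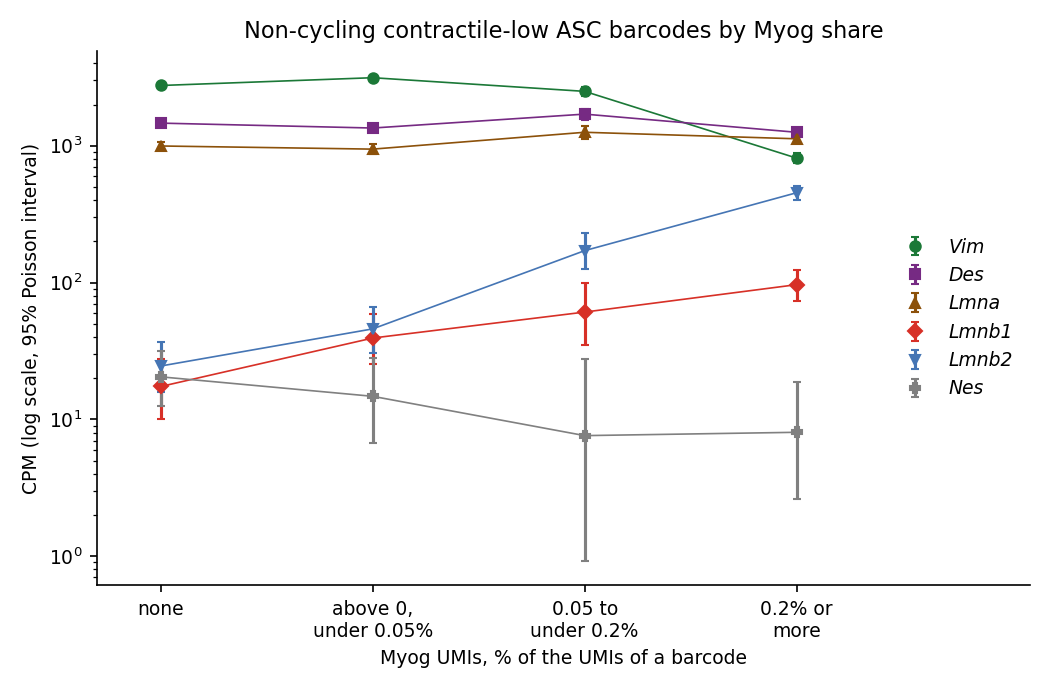
Levels in CPM (vertical log axis) of 6 genes in non-cycling contractile-low ASC barcodes, in 4 steps of the percentage of UMIs from Myog (horizontal axis), with 95% Poisson intervals. Lmnb2 went from 24.5 CPM without Myog UMIs to 453 CPM at 0.2% or more and Vim from 2757 to 812 CPM, while Des and Lmna stayed between 945 and 1703 CPM.

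The genes whose pattern was most like that of each member were sought over 13 cluster-by-library groups, by Pearson's r of log2(CPM + 10). These groups share libraries, depth and free RNA, so the values are descriptions. Tmsb10 (r = 0.98) and Cfl1 (0.97), which bind actin, were closest to Vim, followed by Sept9, Plp2 and Arhgdia. Closest to Des were Cfl2 (0.95), the muscle cofilin, and Mllt3, Nexn, Slc25a46 and Actr1b. Closest to Lmna were the ribosomal protein genes Rpl17 (0.97), Rpl3, Rpl35a, Rps7 and Rpl23a. Lmnb1 was closest to Ube2c (0.93) and Cks2 (0.92), which act in mitosis, and to Sept9, Bst2 and Igfbp3. Lmnb2 was closest to Hes6 (0.99), a transcription factor gene expressed in differentiating myoblasts, and then to Slc29a1, Purb, Bcar1 and Pnmal2. Between members, r was 0.85 for Vim and Lmnb1, 0.69 for Des and Synm, 0.75 for Lmnb1 and Lmnb2, and -0.60 for Vim and Des.

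The partners of these filaments were described from 4 lists. Of 15 genes for filament linkers and chaperones, 12 had at least 20 UMIs in contractile-low barcodes, of which 1 was at least 2-fold higher in ASCs and 5 lower (18.6% and 22.5% of all 9931 genes), with a median log2 ratio of -0.81 (-0.07 over all genes). The higher one was Cryab, a small heat-shock protein that protects desmin, at 529 CPM in QSCs and 1791 CPM in ASCs, a log2 ratio of 1.76 (1.62 to 1.90). Over all kept barcodes Cryab was at 784 and 6618 CPM. Contractile-low barcodes held 448 of its 911 QSC UMIs and 9344 of its 58876 ASC UMIs. The part of free RNA in its contractile-low levels was not tested. The lower ones were Dmd (dystrophin, -2.26), Jup (plakoglobin, -1.99), Dtnb (dystrobrevin beta, -1.44), Bag3 (a co-chaperone, -1.29) and Ppl (periplakin, 18 and 2 UMIs, -5.79, interval -8.94 to -3.73). Plec, which encodes the linker plectin, was at 47.2 and 75.7 CPM. Of 17 other intermediate filament genes only 2, Krt10 and Sync, reached 20 UMIs and neither differed by 2-fold, with Krt10 at 42.5 and 23.6 CPM (a log2 ratio of -0.85).

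Of 15 genes for nuclear envelope partners of the lamins, 14 could be compared in contractile-low barcodes, 3 being at least 2-fold higher in ASCs and 4 lower, shares near the 18.6% and 22.5% of all genes, with a median log2 ratio of -0.34. Banf1, which encodes a chromatin-bridging factor, was at 79.1 and 291 CPM (1.88), Tmpo, which encodes lamina-associated polypeptide 2, at 40.2 and 144 CPM (1.84), and Nrm (nurim) at 3 and 112 UMIs (2.60). The lower ones were Syne2 (nesprin 2, -2.31), Tor1aip1 (-1.41), Sun2 (-1.34) and Lemd2 (-1.08). Between cycling and other ASC barcodes, 3 of 14 were at least 2-fold higher (10.3% of all genes), namely Tmpo (1.99), Nrm (1.80) and Lbr, the lamin B receptor (1.67), and 3 lower (11.3%), namely Syne1 (-2.32), Lemd3 (-1.07, interval -2.41 to 0.18) and Sun1 (-1.06). Between Myog-low and Myog-high barcodes, 2 of 11 were at least 2-fold higher in the latter (7.23% of all genes), namely Syne1 (9 and 36 UMIs, 2.84) and Sun1 (19 and 56 UMIs, 2.40), which bridge the nuclear envelope, and 1 lower (9.25%), Nrm (21 and 2 UMIs, -2.55). Lemd2, Lemd3, Lbr, Syne1, Sun1, Plec, Sync and Narf were named after their values were seen. Of 6 genes for the processing of lamins, all could be compared, and 1, Narf (6 and 17 UMIs), was 2-fold lower with an interval that included 0. Zmpste24, the protease that matures lamin A, was at 44.9 and 24.9 CPM in contractile-low QSC and ASC barcodes, a log2 ratio of -0.85 (-1.38 to -0.29).

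By position in the GENCODE M21 annotation of GRCm38, Vim lies on chromosome 2 (13573927 to 13582826, plus strand), Des on chromosome 1 (75360329 to 75368579, plus) and Nes on chromosome 3 (87971078 to 87980451, plus). Synm lies on chromosome 7 (67730160 to 67759742, minus), Lmna on chromosome 3 (88480147 to 88509956, minus), Lmnb1 on chromosome 18 (56707813 to 56753424, plus) and Lmnb2 on chromosome 10 (80901203 to 80918245, minus). No pair of the 7 overlaps.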

How the data were processed

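The UMI counts per gene and barcode were deposited as filtered matrices. The authors made these counts with Cell Ranger, version 6.0.2 per the file headers and 7.1.0 in the submitters' processing notes, on genome build mm10; the notes also name Seurat 4.1.0 and R 4.1.2. Barcodes were kept if they had 500 or more detected genes and no more than 10% mitochondrial UMIs. Clusters were computed with Seurat 5.3.0 (R 4.3.3; 10 components, resolution 0.6) after the members and other intermediate filament genes were removed from the variable genes. Names were given by markers, by a rule set after the data were seen. Scrublet (scanpy 1.11.5) marked 7 QSC and 3 ASC barcodes, too few to say that it worked, and none was removed.

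Counts were summed over barcodes and compared in Python 3.11.15 (scipy 1.17.1). Levels have exact Poisson intervals, log2 ratios exact conditional binomial intervals and shares Clopper-Pearson intervals, all at 95% and for counting error only. Genes with at least 20 UMIs over both groups were compared, and 2-fold was the size called. A gene with 0 UMIs on one side was given no fold unless a floor of 3 counts bounded it. The calculation was tested on simulated data. With 1 library per group no test was possible. The members and lists were chosen with earlier results of these data known. Named were all members, from each other list up to 6 genes of largest ratio in contractile-low barcodes whose interval lacked 0, and for each member with at least 200 UMIs the 5 genes of most similar pattern. Alternatives covered filters, scaling (TMM, edgeR 4.0.16), barcode limits and depth. Columns of per-sample values left unused numbered 0.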

Additional observations from a re-analysis of the deposited data

How the results depend on the processing

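No paired analysis was possible because each group had 1 library and no replicate numbers. Of the summary values recomputed under an alternative, 87 stayed within the spread or within 1.5 times and 14 did not; of the values of single genes, 199 did, 54 moved and 2 turned direction. The cause was not tested for any of them. Over all kept barcodes, 1 member instead of 0 was at least 2-fold lower in ASCs with a mitochondrial limit of 1%, with one of 5% and with at least 200 detected genes, and the log2 ratio of Synm turned from -0.78 to 0.12 with at least 1000. The Vim percentage of Vim and Des UMIs in ASCs was 74.0% in contractile-low and 9.63% in contractile-high barcodes with a fibre limit of 3%, and 71.5% and 2.73% with one of 10%. With a cell cycle limit of 0.5%, 1 member instead of 2 was at least 2-fold higher in cycling barcodes, Lmna turned from -0.12 to 0.010, and 1 member instead of 2 was higher and 1 instead of 2 lower in Myog-high barcodes; with 0.2%, 1 was lower. With at least 100 UMIs per gene, fewer genes were compared, and those at least 2-fold lower in contractile-low ASC barcodes numbered 3 instead of 5 for linkers and chaperones, 1 instead of 4 for nuclear envelope partners and 0 instead of 1 for lamin processing. In contractile-low barcodes the log2 ratio ranged from 1.17 to 3.56 for Vim, 0.29 to 0.68 for Des, 1.67 to 4.71 for Lmnb1 and 1.19 to 4.13 for Lmnb2. For Synm it ranged there from -2.37 to -1.03 and, without the restrictions by depth, for Nes from 1.92 to 4.61. Over all kept barcodes it ranged from -0.46 to 2.65 for Lmna, 1.59 to 3.29 for Vim and 0.60 to 1.47 for Des. TMM scaling would add 0.31 to every log2 ratio over all kept barcodes, which brings Des to 1.28. The limit of 1% for contractile-low barcodes and of 1000 genes for contractile-high barcodes left under 20 barcodes in a library and gave no value. The Myog limit of 0.2%, the restrictions by depth and that to named clusters were chosen after seeing the data. Depth limits Nes, Lmnb1, Lmnb2 and Synm most, with 1 to 30 UMIs each in the QSC library.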
